A study of Zea mays with 12 samples.

Results

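The genes described here are the ubiquitin and protein degradation genes of the maize kernel, as far as the deposited expression table holds them. A gene was taken when its description contained one of the words ubiquitin, F-box, RING, U-box, proteasome, BTB, protease, peptidase or proteinase, when its identifier came before the limit set for the list, and when its description named neither a ribosomal protein nor a kinase and its Gene Ontology (GO) terms did not include chloroplast. This gave 34 of the 720 genes of the table. Of 35 genes with such a word, 1 was dropped for the chloroplast term, and a further 6 lay beyond the identifier limit. The selection words refer to the annotation and not to expression values.

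The *smk7a* mutant is a recessive small kernel mutant of the maize inbred line B73, obtained by ethyl methanesulfonate mutagenesis. Whole kernels were sampled from wild type (WT) and *smk7a* at 12 and 20 days after pollination (DAP), with 3 biological replicates in each of the 4 groups and 12 samples in all. All 4 groups share the B73 background, and both kinds of kernel were picked from the same ears of segregating plants, the line being kept through heterozygous plants. WT kernels of such ears can be heterozygous, and the genotypes pooled as WT, the number of kernels in a sample and the ears behind each replicate were not given in the sources used here. The values are fragments per kilobase of transcript, normalised to the mapped fragments of the library (FPKM), so they carry no read depth, and the counting error behind each value is unknown. The p-values rest on the spread between the samples within groups. This spread was pooled over the groups of a fit and drawn toward a trend over all genes tested.

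Ubiquitin is a small protein that is attached to other proteins in a chain of reactions. An activating enzyme (E1) charges it, a conjugating enzyme (E2) carries it, and a ligase (E3) of the RING, U-box or HECT type places it on the substrate, often with an F-box or BTB protein as the part that recognises the substrate. The 26S proteasome degrades tagged proteins, deubiquitinating enzymes remove the tag, and proteases of the vacuole, the cell wall and the autophagy pathway cut proteins independently of it. In cereal seeds these systems turn over regulators of hormone signalling and of the cell cycle, and proteases also act on storage proteins and in cells that die during development.

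By the wording of their descriptions, the 34 genes comprised 4 ubiquitin-related genes with 1 E2 enzyme among them, 6 deubiquitinating enzymes, 8 ligases, 8 F-box or BTB proteins, 1 proteasome subunit and 7 proteases or peptidases. GO terms were given for 31 of them, and 28 of these carried a term for ubiquitin, the proteasome or proteolysis. The other 3 did not. The GO terms of the F-box gene Zm00001d000314 named cytokinin signalling. Those of Zm00001d001869, described as a hydrolase, named cell proliferation and lateral roots. Those of the ubiquitin-like gene Zm00001d001962 were those of a retrotransposon. Placement in a role therefore follows the annotation and not a measured activity.

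The same genes had to be read against a shift that covered the whole table. With FPKM as deposited, the median log2 fold change of all genes tested was 0.48 for *smk7a* over WT at 12 DAP, 0.53 for *smk7a* over WT at 20 DAP, -0.55 for 20 over 12 DAP in WT and -0.44 for 20 over 12 DAP in *smk7a*. A second scaling (median of ratios) divided each sample by its typical ratio to a geometric mean sample, and these medians then were 0.01, -0.02, 0.00 and -0.01. The table holds 720 genes and cannot tell a shift of these genes from a shift of scale, so the main fold changes are given as deposited and again after median of ratios scaling. In what follows, the adjusted p is that of limma with Benjamini-Hochberg adjustment over all genes tested. A gene is said to pass both thresholds when its adjusted p was under 0.05 and its fold change above 2. Overlap of groups refers to FPKM as deposited unless scaling is named. As deposited, the genotypes did not overlap in 60.5% of all genes tested at 12 DAP and in 73.2% at 20 DAP. After scaling these shares were 50.7% and 44%.

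Marker genes of kernel tissues also moved with the groups. The summed FPKM of 2 endosperm markers ranged from 254 to 296 in WT and from 128 to 169 in *smk7a* at 12 DAP, and from 187 to 207 in WT and from 128.5 to 169 in *smk7a* at 20 DAP. The marker of the basal endosperm transfer layer ranged from 252 to 271 in WT and from 67.5 to 90.0 in *smk7a* at 12 DAP, while its ranges overlapped at 20 DAP (88.0 to 132 and 54.7 to 156). Embryo markers were taken by the words embryo, oleosin or late embryogenesis in the description, which does not show that they mark embryo tissue. Of 9 embryo markers 8 were at 0 in every sample, and no aleurone marker was found. The remaining embryo marker, the late embryogenesis abundant gene Zm00001d000135, was at 17.4 ± 4.26 FPKM in WT and 33.3 ± 4.60 FPKM in *smk7a* at 12 DAP (log2 fold change 0.96, adjusted p = 0.00867; 0.48 after scaling, adjusted p = 0.0814). At 20 DAP it was at 11.2 ± 1.35 FPKM in WT and 13.6 ± 2.18 FPKM in *smk7a*, so it was highest in *smk7a* at 12 DAP. This gene was not taken as a measure of embryo content. The part of these markers in the results was not tested, and in whole kernels fewer cells of a type and less RNA per cell cannot be told apart.

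Levels covered a wide range. Of the 34 genes, 5 were at 0 in all 12 samples, 5 were above 0 but never above 1 FPKM, and 24 exceeded 1 FPKM in at least 1 sample. Of these 24, 23 exceeded 1 FPKM in 3 or more samples, and 12 had a mean above 10 FPKM over all samples. By role, the 23 genes were 4 of 4 ubiquitin-related genes, 5 of 6 deubiquitinating enzymes, 4 of 8 ligases, 4 of 8 F-box or BTB proteins, the 1 proteasome subunit and 5 of 7 proteases. In the whole table, 375 of 720 genes passed the same level and 153 were at 0 in every sample.

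**Figure D1:**
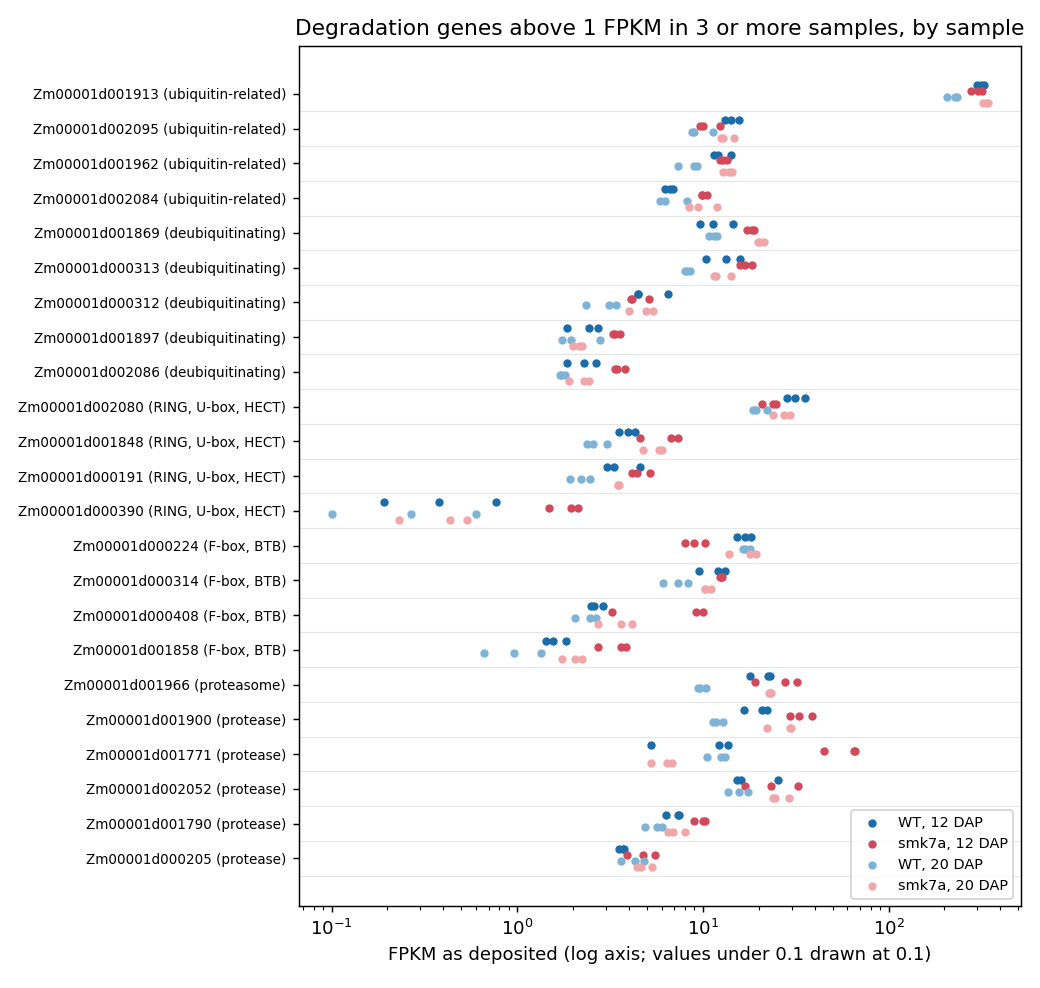
FPKM as deposited on a log axis for the 23 genes above 1 FPKM in 3 or more samples, with 1 point per sample coloured by genotype and stage, and genes grouped by role; values under 0.1 are drawn at 0.1. The E2 gene Zm00001d001913 lay far to the right of every other gene, and the aspartyl protease Zm00001d001771 had its 3 *smk7a* samples of 12 DAP (44.9 to 65.6 FPKM) apart from the other 9 samples.

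The E2 gene Zm00001d001913, described as ubiquitin-conjugating enzyme E2 11, was the most abundant gene of the whole table in each of the 4 groups. It measured 316, 327 and 298 FPKM in WT and 278, 302 and 320 FPKM in *smk7a* at 12 DAP. At 20 DAP it measured 233, 207.5 and 228 FPKM in WT and 342, 323 and 340 FPKM in *smk7a*. As deposited, genotypes overlapped at 12 DAP and were apart at 20 DAP, where WT was lowest. After scaling they were apart at 12 DAP, with *smk7a* lower, and overlapped at 20 DAP. The next degradation gene by mean level, the ligase gene Zm00001d002080, ranked 41 in the table. Plant E2 genes of this family have near-identical copies, and how reads that fit several copies were assigned was not given, so the level may include more than 1 locus.

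The E2 gene alone made up 6.79% ± 0.232 (SD, n = 3) of the summed FPKM of the table in WT at 12 DAP and 5.15% ± 0.352 in *smk7a* at 12 DAP. The shares at 20 DAP were 7.15% ± 0.129 in WT and 7.64% ± 0.529 in *smk7a*. These shares need no scaling between samples, but they are shares of 720 genes only. All 34 genes together held 11.6% ± 0.152 and 10.4% ± 0.288 at 12 DAP in WT and *smk7a*, and 12.4% ± 0.193 and 13.2% ± 0.568 at 20 DAP. Without the E2 gene, the other members held 4.82% ± 0.146 in WT and 5.27% ± 0.106 in *smk7a* at 12 DAP. The lower share of the whole list in *smk7a* at 12 DAP was thus not seen without the E2 gene. At this stage the summed FPKM of the table was 4623 in WT and 5827 in *smk7a*, with the E2 gene at 314 and 300 FPKM. Outside the 10 most abundant genes, the members held 6.76% ± 0.0795 in WT and 6.62% ± 0.0724 in *smk7a*.

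On the log2 scale, the E2 gene of *smk7a* differed from WT by -0.07 at 12 DAP as deposited (SE 0.10, adjusted p = 0.605) and by -0.55 after scaling (SE 0.10, adjusted p = 0.00594). At 20 DAP the difference was 0.59 as deposited (SE 0.08, adjusted p = 0.000542) and 0.02 after scaling (SE 0.08, adjusted p = 0.887). Each stage alone therefore passed the adjusted p under 1 scaling only. The change of that difference from 12 to 20 DAP did not depend on it: the *smk7a* over WT fold change was higher at 20 than at 12 DAP by 0.65 on the log2 scale as deposited (SE 0.13, adjusted p = 0.00337) and by 0.57 after scaling (SE 0.12, adjusted p = 0.00817).

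The other 3 ubiquitin-related genes were expressed at lower levels. Zm00001d002095, which carries a ubiquitin-associated (UBA) domain, a fold that binds ubiquitin, measured 13.2, 15.7 and 14.2 FPKM in WT and 10.05, 9.60 and 12.3 FPKM in *smk7a* at 12 DAP, with no overlap. At 20 DAP the order was turned, with 11.4, 8.94 and 8.74 FPKM in WT and 12.8, 12.6 and 14.7 FPKM in *smk7a*. After scaling, the gene was lower in *smk7a* at 12 DAP by -0.91 (SE 0.16, adjusted p = 0.00428; as deposited -0.43, adjusted p = 0.0477), while at 20 DAP the scaled value of -0.10 (adjusted p = 0.553) stood against 0.46 as deposited (adjusted p = 0.0141). Its stage difference was 0.90 as deposited (SE 0.20, adjusted p = 0.00894) and 0.81 after scaling (SE 0.19, adjusted p = 0.0119). Zm00001d001962, the ubiquitin-like gene, went from 12.9 ± 0.516 FPKM in *smk7a* and 12.6 ± 1.43 FPKM in WT at 12 DAP to 13.6 ± 0.752 and 8.51 ± 1.04 FPKM at 20 DAP. Zm00001d002084, with a ubiquitin-hydrolase zinc finger, was at 6.63 ± 0.32 FPKM in WT and 10.1 ± 0.368 FPKM in *smk7a* at 12 DAP. The levels at 20 DAP were 6.77 ± 1.24 FPKM in WT and 9.92 ± 1.83 FPKM in *smk7a*. For this gene the 12 DAP difference was 0.60 as deposited (adjusted p = 0.00622) and 0.12 after scaling (adjusted p = 0.477). At 20 DAP it was 0.54 as deposited (adjusted p = 0.0205) and -0.02 after scaling (adjusted p = 0.942). The stage difference of Zm00001d002084 was -0.05 (adjusted p = 0.882) and -0.14 after scaling (adjusted p = 0.639).

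Only 1 gene of the list encodes a proteasome subunit. Zm00001d001966 encodes the 26S proteasome non-ATPase regulatory subunit 7 homolog A (RPN8A), a component of the lid of the regulatory particle. It measured 23.1, 22.4 and 17.8 FPKM in WT and 27.8, 19.0 and 32.1 FPKM in *smk7a* at 12 DAP, where the groups overlapped. At 20 DAP it measured 10.4, 9.69 and 9.38 FPKM in WT and 23.1, 23.0 and 22.6 FPKM in *smk7a*. The WT samples of 20 DAP were thus the lowest of all, and the 3 *smk7a* samples of 20 DAP lay within the *smk7a* range of 12 DAP. The gene passed both thresholds as higher in *smk7a* at 20 DAP, by 1.21 on the log2 scale as deposited (SE 0.09, adjusted p = 0.000104), and was higher by 0.65 after scaling (SE 0.08, adjusted p = 0.00172). In WT it fell from 12 to 20 DAP, with -1.09 as deposited (SE 0.16, adjusted p = 0.000372) and -0.54 after scaling (adjusted p = 0.0123). In *smk7a* the age difference was -0.17 as deposited (adjusted p = 0.484) and 0.28 after scaling (adjusted p = 0.326), which leaves its direction undetermined.

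**Figure D2:**
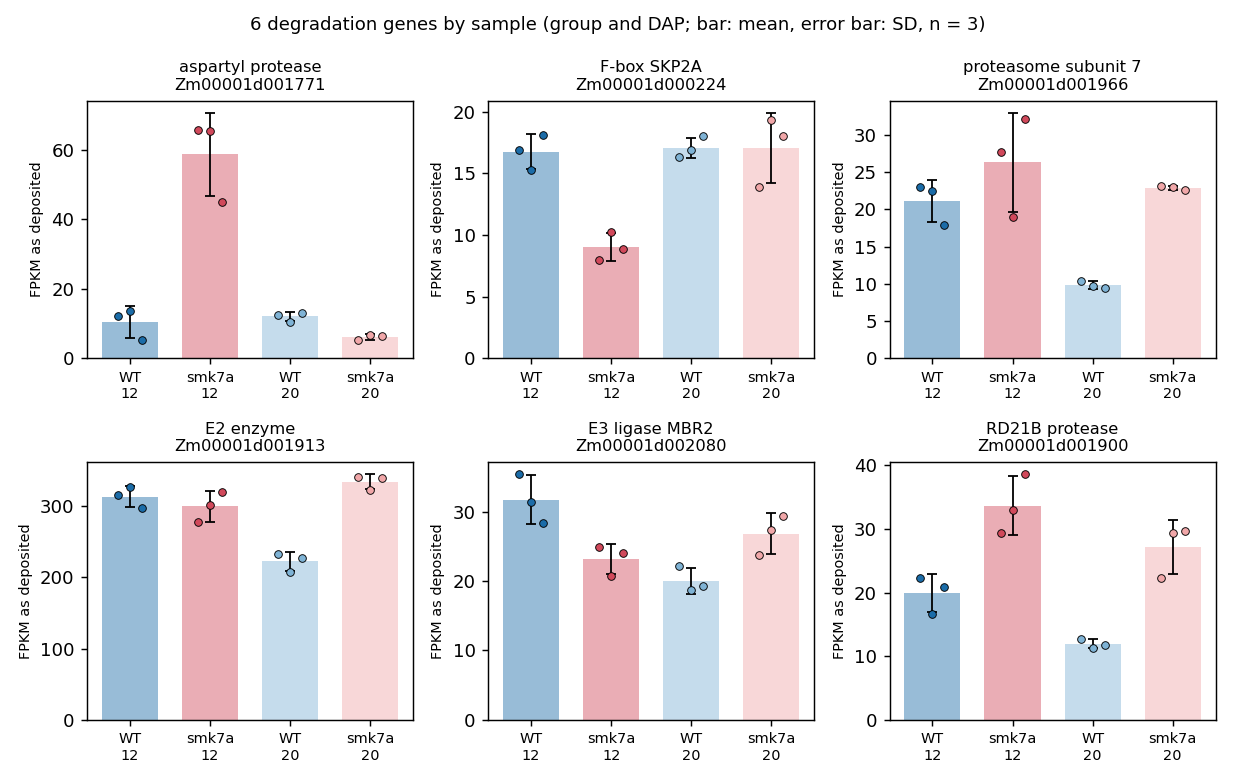
FPKM as deposited of 6 degradation genes in the 12 samples, with bars for group means, error bars for SD (n = 3) and points for samples; each panel has its own axis, starting at 0. The aspartyl protease stood out in *smk7a* at 12 DAP, SKP2A was lowest in the same group, and the proteasome subunit was lowest in WT at 20 DAP.

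Among the genes described as deubiquitinating enzymes, Zm00001d001869 and Zm00001d000313 were the most abundant. Zm00001d001869 has the synonym RPD1 and no GO term for deubiquitination, so its place here rests on its description alone. Zm00001d001869, a ubiquitin carboxyl-terminal hydrolase family gene, measured 11.3, 14.5 and 9.64 FPKM in WT and 18.7, 17.3 and 18.3 FPKM in *smk7a* at 12 DAP, and 11.5, 10.7 and 12.0 FPKM in WT and 20.3, 19.9 and 21.2 FPKM in *smk7a* at 20 DAP. As deposited the genotypes were apart at both stages, and after scaling at 20 DAP only. At 20 DAP the difference was 0.84 as deposited (SE 0.09, adjusted p = 0.000241) and 0.27 after scaling (SE 0.08, adjusted p = 0.0342), below a fold change of 2 in both. At 12 DAP it was 0.63 as deposited (adjusted p = 0.018) and 0.15 after scaling (adjusted p = 0.469).

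Zm00001d000313 and Zm00001d000312 carry consecutive identifiers and the same description, ubiquitin carboxyl-terminal hydrolase 25, so the split of reads between them is uncertain. The former ranged from 8.24 ± 0.234 FPKM in WT at 20 DAP to 16.997 ± 1.25 FPKM in *smk7a* at 12 DAP, and the latter from 2.96 ± 0.545 FPKM in WT at 20 DAP to 5.13 ± 1.16 FPKM in WT at 12 DAP. Of the pair, Zm00001d000312 had a stage difference of 0.86 (SE 0.27, adjusted p = 0.0375; 0.78 after scaling, adjusted p = 0.0283), and Zm00001d000313 one of 0.20 (SE 0.22, adjusted p = 0.542; 0.12 after scaling, adjusted p = 0.706). The call of Zm00001d000312 was lost in 7 of the 12 fits that left out 1 sample, with adjusted p up to 0.0925. These were the fits without WT replicate 2 or *smk7a* replicate 1 or 2 of 12 DAP, and without WT replicate 1 or 2 or *smk7a* replicate 2 or 3 of 20 DAP. The OTU-like protease gene Zm00001d001897 and the hydrolase 22 gene Zm00001d002086, which in Arabidopsis acts on histone H2B, stayed below 4 FPKM in every sample. The highest group mean of each was in *smk7a* at 12 DAP (3.41 ± 0.143 and 3.53 ± 0.229 FPKM), and neither had an adjusted p under 0.05 after scaling in any comparison.

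The ligases were led by Zm00001d002080, described as MBR2, a RING ligase which in Arabidopsis targets a Mediator subunit in flowering control. It measured 35.4, 31.5 and 28.3 FPKM in WT and 24.9, 20.8 and 23.99 FPKM in *smk7a* at 12 DAP, and 22.1, 18.7 and 19.3 FPKM in WT and 23.7, 27.4 and 29.5 FPKM in *smk7a* at 20 DAP. As deposited, the genotypes did not overlap at either stage, and their order was opposite. After scaling they overlapped at 20 DAP. At 12 DAP the gene was lower in *smk7a* by -0.45 as deposited (SE 0.15, adjusted p = 0.0349) and by -0.93 after scaling (SE 0.13, adjusted p = 0.00209). At 20 DAP it was 0.42 higher as deposited (adjusted p = 0.0136), but -0.15 after scaling (adjusted p = 0.269). Its stage difference was 0.86 as deposited (SE 0.19, adjusted p = 0.00708) and 0.78 after scaling (SE 0.15, adjusted p = 0.0033).

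The other 3 expressed ligases were low. Zm00001d001848, a C3HC4 RING finger gene whose GO terms also name the Hsp70 chaperone, measured 3.06, 2.37 and 2.56 FPKM in WT and 4.78, 5.81 and 6.04 FPKM in *smk7a* at 20 DAP, without overlap. It passed both thresholds there with 1.03 as deposited (SE 0.15, adjusted p = 0.000585), with 0.48 after scaling (adjusted p = 0.0221). Leaving out WT replicate 2 or *smk7a* replicate 2 or 3 took it below a fold change of 2 (log2 fold change 0.95, 0.99 and 0.97). Zm00001d000390, a putative RING gene with the synonym ATL72, measured 0.767, 0.190 and 0.378 FPKM in WT and 1.96, 1.48 and 2.12 FPKM in *smk7a* at 12 DAP, and at most 0.601 FPKM in any sample of 20 DAP. Only the 3 *smk7a* samples of 12 DAP exceeded 1 FPKM. The gene met the minimum level for testing through that group alone, which fixed the direction of any call, so its levels are a description and no test of it is given. The HECT ligase gene Zm00001d000191 (UPL6) was at 3.64 ± 0.801 FPKM in WT and 4.59 ± 0.525 FPKM in *smk7a* at 12 DAP. The older kernels had 2.20 ± 0.275 FPKM in WT and 3.50 ± 0.0331 FPKM in *smk7a*. Its 20 DAP difference of 0.65 (adjusted p = 0.00378) was 0.10 after scaling (adjusted p = 0.535).

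Of the F-box and BTB genes, Zm00001d000224 differed most clearly. It is described as SKP2A, which in Arabidopsis is an auxin-binding F-box protein that directs cell cycle factors to degradation. It measured 16.9, 15.3 and 18.1 FPKM in WT and 7.96, 10.2 and 8.91 FPKM in *smk7a* at 12 DAP, and 16.4, 16.9 and 17.999 FPKM in WT and 13.9, 19.3 and 18.02 FPKM in *smk7a* at 20 DAP. Only the *smk7a* samples of 12 DAP were low, and the other 3 groups overlapped. At 12 DAP it was lower in *smk7a* by -0.89 as deposited (SE 0.15, adjusted p = 0.0029) and passed both thresholds after scaling with -1.37 (SE 0.17, adjusted p = 0.00114). At 20 DAP the difference was -0.01 as deposited (adjusted p = 0.934) and -0.58 after scaling (adjusted p = 0.0144). From 12 to 20 DAP the gene rose in *smk7a* by 0.91 as deposited (SE 0.16, adjusted p = 0.00372) and by 1.35 after scaling (SE 0.15, adjusted p = 0.00133). In WT the age difference was 0.03 as deposited (adjusted p = 0.876) and 0.58 after scaling (SE 0.15, adjusted p = 0.0227).

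Zm00001d000408 is described as EIN3-binding F-box protein 1, which in Arabidopsis removes the transcription factor EIN3 of the ethylene pathway. It measured 2.89, 2.51 and 2.59 FPKM in WT and 9.95, 9.15 and 3.24 FPKM in *smk7a* at 12 DAP. The groups were apart, but *smk7a* replicate 3 lay much nearer to WT than to the other *smk7a* samples. The difference was 1.30 as deposited (SE 0.39, adjusted p = 0.0262) and 0.82 after scaling (adjusted p = 0.137), and leaving out any 1 sample other than *smk7a* replicate 3 gave an adjusted p between 0.0541 and 0.0840. Without *smk7a* replicate 3 the difference was 1.80 with an adjusted p of 0.000638. At 20 DAP the gene was at 2.39 ± 0.303 FPKM in WT and 3.49 ± 0.708 FPKM in *smk7a*.

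The BTB/POZ gene Zm00001d001858 measured 1.56, 1.83 and 1.44 FPKM in WT and 2.72, 3.62 and 3.83 FPKM in *smk7a* at 12 DAP. Its difference of 1.02 (SE 0.20, adjusted p = 0.00518) was barely above a fold change of 2, fell to between 0.93 and 0.97 without WT replicate 3 or *smk7a* replicate 2 or 3, and was 0.56 after scaling (adjusted p = 0.0555). The F-box gene Zm00001d000314 was lowest in WT at 20 DAP (7.24 ± 1.12 FPKM) and between 10.5 ± 0.501 and 12.5 ± 0.169 FPKM in the other groups. After scaling, no comparison of it had an adjusted p under 0.05.

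The largest change of the list was in the proteases. Zm00001d001771, a eukaryotic aspartyl protease family gene with the synonym nep1, belongs to the pepsin-like proteases, which in plants act mainly in the vacuole and outside the cell. It measured 12.3, 13.7 and 5.26 FPKM in WT and 65.6, 65.4 and 44.9 FPKM in *smk7a* at 12 DAP. At 20 DAP it measured 12.5, 10.6 and 13.1 FPKM in WT and 5.24, 6.82 and 6.37 FPKM in *smk7a*. The *smk7a* samples were thus above every WT sample at 12 DAP and below every WT sample of the same stage at 20 DAP. At 12 DAP the gene was 5.96-fold higher in *smk7a* as deposited (log2 2.57, SE 0.36, adjusted p = 0.00122) and 4.27-fold higher after scaling (log2 2.09, SE 0.32, adjusted p = 0.00261). At 20 DAP its log2 fold change was -0.97 as deposited (SE 0.14, adjusted p = 0.000585), just short of a fold change of 2, and -1.53 after scaling (SE 0.10, adjusted p = 9.99e-05), past both thresholds. Without WT replicate 2 or *smk7a* replicate 2 it also passed both as deposited (-1.06 and -1.04).

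Within *smk7a*, the aspartyl protease gene Zm00001d001771 fell from 12 to 20 DAP, with a log2 fold change of -3.22 as deposited (SE 0.18, adjusted p = 6.64e-05) and -2.78 after scaling (SE 0.17, adjusted p = 0.000133). The corresponding WT difference was 0.32 as deposited (SE 0.30, adjusted p = 0.353) and 0.87 after scaling (SE 0.27, adjusted p = 0.0456). The stage difference of the *smk7a* response was -3.54 as deposited (SE 0.42, adjusted p = 0.000171) and -3.62 after scaling (SE 0.36, adjusted p = 6.92e-05).

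The cysteine protease gene Zm00001d001900 is described as RD21B, a papain-like protease of the group known in Arabidopsis from drought responses. It measured 22.3, 16.7 and 20.9 FPKM in WT and 29.4, 33.1 and 38.6 FPKM in *smk7a* at 12 DAP, and 12.8, 11.3 and 11.7 FPKM in WT and 22.2, 29.4 and 29.8 FPKM in *smk7a* at 20 DAP. As deposited, every *smk7a* sample was above every WT sample of its stage, and after scaling this held at 20 DAP only. The gene passed both thresholds at 20 DAP with 1.17 as deposited (SE 0.13, adjusted p = 0.000257) and was higher by 0.60 after scaling (SE 0.11, adjusted p = 0.00732). At 12 DAP the difference was 0.75 as deposited (adjusted p = 0.00853) and 0.27 after scaling (adjusted p = 0.296).

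The remaining 3 expressed proteases varied less as deposited. Zm00001d001790, described as ATG4a, a cysteine protease that processes ATG8 in autophagy, was at 7.03 ± 0.603 FPKM in WT and 9.75 ± 0.692 FPKM in *smk7a* at 12 DAP. At 20 DAP its levels were 5.51 ± 0.571 FPKM in WT and 7.14 ± 0.793 FPKM in *smk7a*. The *smk7a* over WT difference of ATG4a at 12 DAP was 0.47 as deposited (adjusted p = 0.0243) and -0.01 after scaling (adjusted p = 0.960). At 20 DAP it was 0.37 as deposited (adjusted p = 0.0314) and -0.19 after scaling (adjusted p = 0.211). Zm00001d002052, an isoaspartyl peptidase and asparaginase gene, ranged from 15.5 ± 1.92 FPKM in WT to 25.8 ± 2.98 FPKM in *smk7a* at 20 DAP, and its *smk7a* samples of 12 DAP spread widely (16.8, 32.4 and 23.2 FPKM). Its 20 DAP difference of 0.73 as deposited (adjusted p = 0.0016) was 0.16 after scaling (adjusted p = 0.336). The carboxypeptidase gene Zm00001d000205 (SOL1), which in Arabidopsis processes a CLE peptide, had the flattest group means of the 23 genes as deposited, from 3.67 ± 0.105 to 4.79 ± 0.469 FPKM. After scaling its means ran from 3.38 in *smk7a* at 12 DAP to 5.94 in WT at 20 DAP. The scaled log2 fold change of SOL1 was 0.73 with age in WT (adjusted p = 0.00545). For *smk7a* over WT at 20 DAP it was -0.38 (adjusted p = 0.0348). The summed FPKM of the protease genes ranged from 121 to 147 in *smk7a* at 12 DAP, against 52.3 to 70.0 in WT at 12 DAP, 44.1 to 53.1 in WT at 20 DAP and 68.0 to 72.7 in *smk7a* at 20 DAP. Without the aspartyl protease the sum at 12 DAP ranged from 61.1 to 81.1 in *smk7a* and from 43.8 to 57.8 in WT, without overlap as deposited. These sums were not scaled, so they carry the shift of the whole table. After scaling, the aspartyl protease was the only protease tested with an adjusted p under 0.05 at 12 DAP.

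Over the whole list at 12 DAP, the aspartyl protease was raised most in *smk7a*, while SKP2A, MBR2 and the UBA gene were lower. With FPKM as deposited, 4 of 23 genes tested passed both thresholds, against 22.7% of all 365 genes tested (18.6% higher and 4.11% lower in *smk7a*). All 4 were higher in *smk7a*, and 1 of them was Zm00001d000390, whose direction the minimum level had fixed. Without it 3 of 22 passed, the aspartyl protease, EIN3-binding F-box protein 1 and the BTB/POZ gene Zm00001d001858. After scaling there were 2 of 22 without it, against 15.9% of all genes (7.67% higher and 8.22% lower), the aspartyl protease higher and SKP2A lower. The shares of all genes were not cleared of genes above 1 FPKM in 1 group only. The median log2 fold change of the 23 genes was 0.38 as deposited, beside 0.48 for all genes, and -0.10 after scaling, beside 0.01. Without Zm00001d000390 the median was 0.36 as deposited and -0.12 after scaling. By adjusted p alone, 60.9% of the 23 genes differed as deposited and 34.8% after scaling, beside 51.2% and 33.4% of all genes. As deposited these were 11 higher and 3 lower, beside 43.6% and 7.67% of all genes, and after scaling 2 higher and 6 lower, beside 16.4% and 17%. Leaving out Zm00001d000390 takes 1 from the higher genes under each scaling. Of the other 22, the aspartyl protease was higher under both scalings, and SKP2A, MBR2 and the UBA gene Zm00001d002095 were lower under both. The fold changes of 8 genes changed sign with the scaling.

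For *smk7a* against WT at 20 DAP, 3 of 22 genes tested passed both thresholds as deposited, against 15.8% of 336 genes tested (14.3% higher and 1.49% lower), all of them higher in *smk7a*: the RING finger gene Zm00001d001848, the RD21B gene and the RPN8A gene. After scaling 1 gene passed, against 8.33% of all genes (3.87% higher and 4.46% lower), and this was the aspartyl protease, lower in *smk7a*. The median of the 22 genes was 0.57 as deposited, beside 0.53 for all genes, and 0.00 after scaling, beside -0.02. By adjusted p alone, 81.8% of the 22 genes differed as deposited and 31.8% after scaling, beside 69.9% and 29.2% of all genes. As deposited these were 17 higher and 1 lower, beside 65.8% and 4.17% of all genes, and after scaling 4 higher and 3 lower, beside 14.3% and 14.9%. In both scalings 5 genes differed the same way, 4 higher (Zm00001d001848, Zm00001d001869, RD21B and RPN8A) and 1 lower (the aspartyl protease). The sign of 9 genes changed with the scaling.

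**Figure D3:**
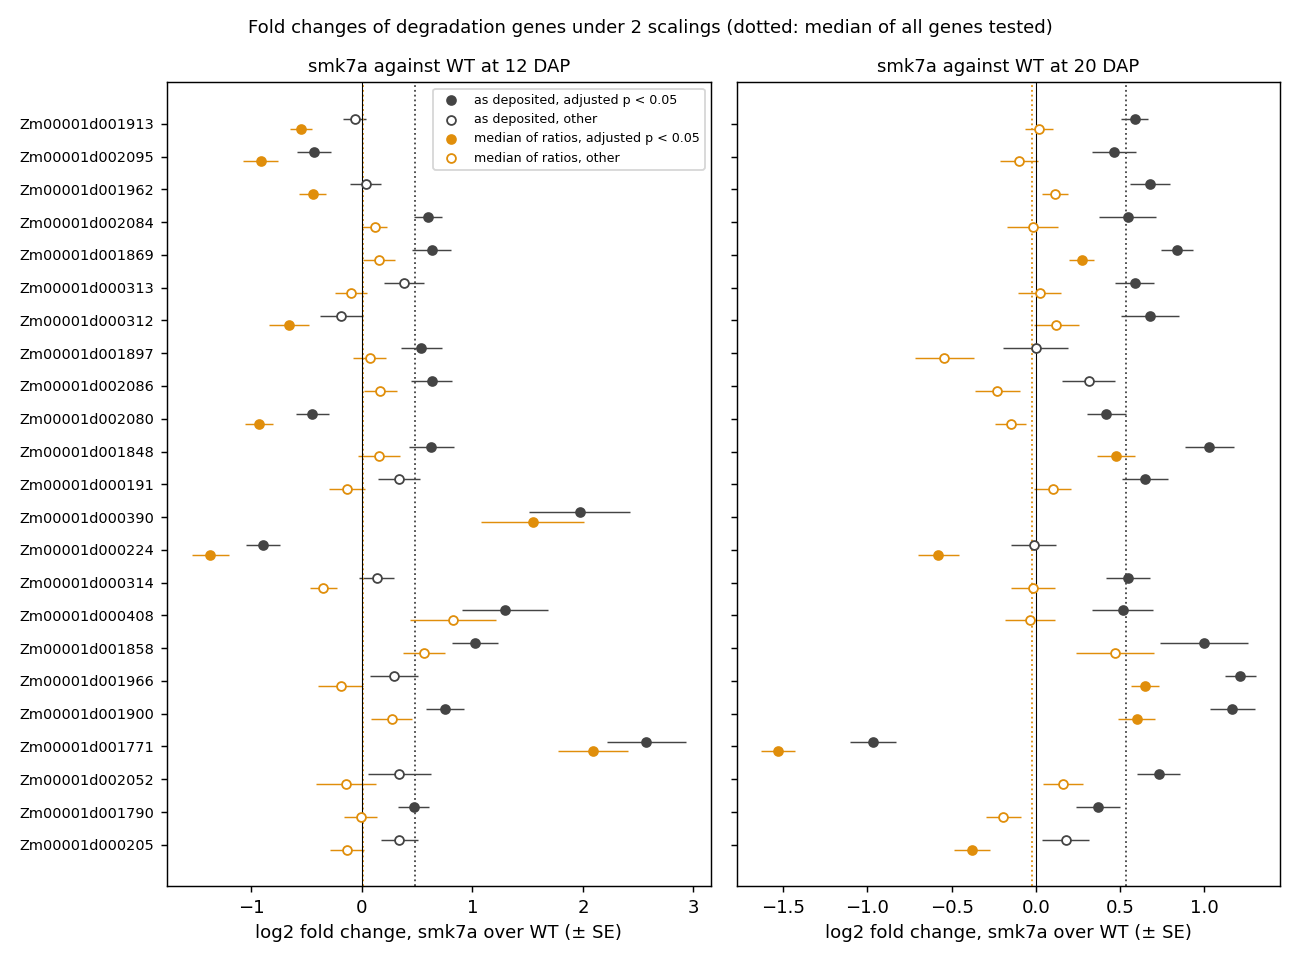
log2 fold changes of *smk7a* over WT (points, with SE as bars) at 12 DAP, left, and 20 DAP, right, for the degradation genes tested, as deposited (grey) and after median of ratios scaling (orange), with filled points for adjusted p under 0.05 (Zm00001d000390 at 12 DAP was tested only through its high group) and dotted lines at the median of all genes tested. Scaling moved the points left, by about the distance between the medians of 0.48 and 0.01 at 12 DAP and of 0.53 and -0.02 at 20 DAP.

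Whether the response to the mutation differed between the stages could be tested with little influence of scale. Of the 23 genes tested, 8 had an adjusted p under 0.05, which is 34.8% of them beside 21.1% of all 375 genes tested. These were the same 8 genes after scaling, beside 24% of all genes, and no stage difference of the 23 genes changed sign. In 7 of the 8 the *smk7a* over WT fold change was higher at 20 than at 12 DAP (13.1% of all genes, 13.3% after scaling): 3 of 4 ubiquitin-related genes (the E2 gene, the UBA gene and the ubiquitin-like gene), the RPN8A gene, MBR2, SKP2A and the hydrolase 25 gene Zm00001d000312. The 7 values lay between 0.64 and 0.92 as deposited, below a fold change of 2. The aspartyl protease alone went the other way, as did 8% of all genes (10.7% after scaling). It was the 1 gene of 23 past both thresholds, against 12% of all genes (6.67% higher and 5.33% lower) and, after scaling, 12.3% (6.13% each way). The median stage difference was 0.31 for the 23 genes, beside 0.15 for all genes, and 0.23 beside 0.06 after scaling. Without Zm00001d000390, 8 of 22 genes had an adjusted p under 0.05 under each scaling. The median was then 0.35 as deposited and 0.27 after scaling.

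Calls with a small margin depended on single samples or on the fit. The ubiquitin-like gene Zm00001d001962 (0.64, SE 0.18, adjusted p = 0.0238; 0.56 after scaling, adjusted p = 0.0119) lost its call without WT 12 DAP replicate 2 or *smk7a* 20 DAP replicate 2 or 3, with adjusted p up to 0.0658. With no filter on low genes, the adjusted p of the E2 gene was 0.0683 and that of Zm00001d000312 was 0.0581. In a fit with the replicate number as a block, RPN8A (adjusted p = 0.0611), Zm00001d000312 and Zm00001d001962 (0.0761 each) also missed the threshold, which left 5 of the 8. The aspartyl protease, SKP2A, MBR2 and the UBA gene had an adjusted p under 0.05 in all of these settings.

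**Figure D4:**
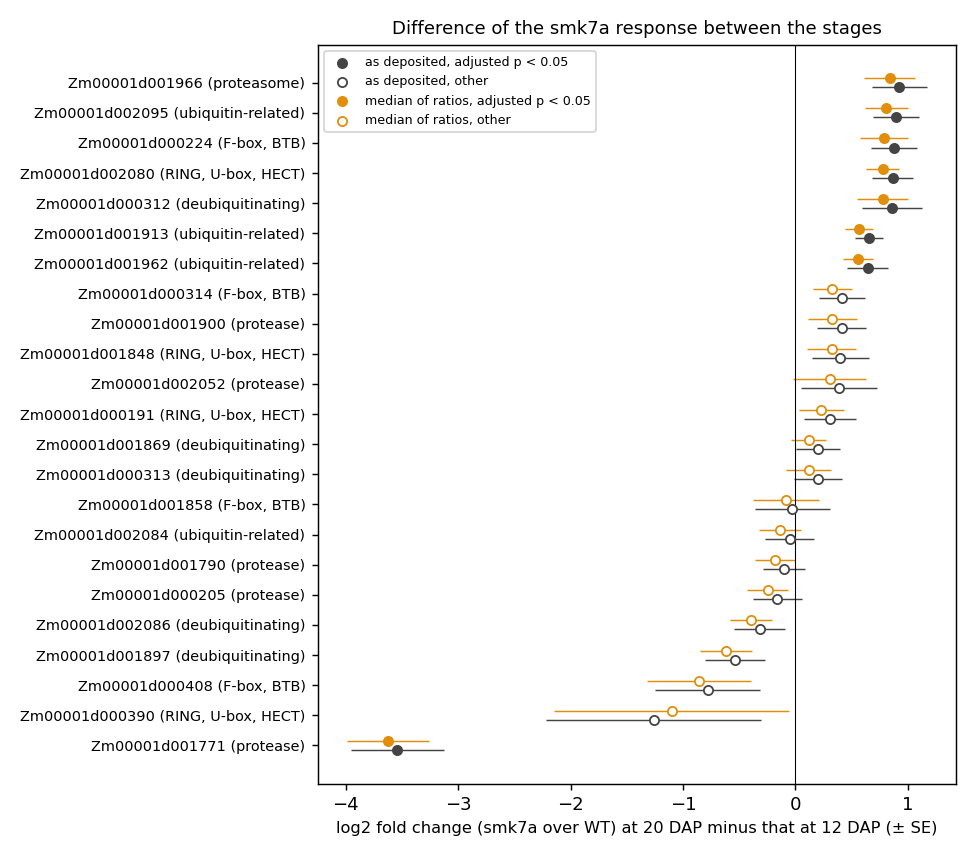
Stage difference, the log2 fold change of *smk7a* over WT at 20 DAP minus that at 12 DAP (points, with SE as bars), for the 23 degradation genes tested, as deposited (grey) and after median of ratios scaling (orange), with filled points for adjusted p under 0.05. The 7 filled genes at the top lay between 0.64 and 0.92 as deposited, and the aspartyl protease stood at -3.54. Zm00001d000390 was tested only through its high group.

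In WT, RPN8A was the 1 gene of the list that fell with age at an adjusted p under 0.05 under both scalings. From 12 to 20 DAP, 1 of 22 genes tested passed both thresholds as deposited, against 17.7% of 344 genes (2.03% higher and 15.7% lower), and this was RPN8A, lower at 20 DAP. After scaling none did by limma, against 9.3% of all genes (4.94% higher and 4.36% lower), with 7 genes at an unadjusted p under 0.05 and 6 at an adjusted p under 0.05. The median was -0.52 beside -0.55 for all genes, and 0.02 beside 0.00 after scaling. By adjusted p alone, beside 61% of all genes, 11 genes were lower as deposited and none higher, where 56.7% of all genes were lower and 4.36% higher. Of the 6 after scaling, beside 26.2% of all genes, 5 were higher and 1, RPN8A, lower, where 14.2% of all genes were higher and 11.9% lower.

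In *smk7a*, 2 of 23 genes tested passed both thresholds from 12 to 20 DAP as deposited, against 19.2% of 364 genes (3.02% higher and 16.2% lower), both lower at 20 DAP. Of these, 1 was Zm00001d000390, whose direction the minimum level had fixed here too, and without it 1 of 22 passed, the aspartyl protease. After scaling there were 2 of 22 without it, against 11.8% (4.95% higher and 6.87% lower), the aspartyl protease lower and SKP2A higher. Here too, the shares of all genes were not cleared of genes above 1 FPKM in 1 group only. The median was -0.17 beside -0.44 for all genes, and 0.28 beside -0.01 after scaling. Without Zm00001d000390 it was -0.16 as deposited and 0.28 after scaling. By adjusted p alone, 8 were lower and 1 higher as deposited, beside 47.3% and 5.49% of all genes (52.7% in either direction). After scaling 2 were lower and 7 higher, beside 17.3% and 17.9% (35.2% in either direction). Zm00001d000390 is 1 of the lower genes under each scaling. The 2 age comparisons and the 2 genotype comparisons share their samples, so their counts are not independent of each other.

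The 10 genes at or near 0 were mostly ligases and substrate receptors. At 0 in all 12 samples were the U-box gene Zm00001d000044, the RING-H2 gene Zm00001d000410, the RING/U-box gene Zm00001d001792, the serine carboxypeptidase-like gene Zm00001d001912 and Zm00001d002182, described as F-box only protein 7. The table gives 8 genes this description, 2 of them on the list, and the other of these, Zm00001d002179, reached 0.275 FPKM. The F-box gene Zm00001d000308 reached 0.0904 FPKM, the BTB/POZ gene Zm00001d002146 reached 0.310 FPKM, the cysteine protease 1 gene Zm00001d000327 reached 0.702 FPKM, and Zm00001d001769 (PUB23), a U-box ligase of immune responses in Arabidopsis, reached 0.695 FPKM. The ubiquitin-specific protease 7 gene Zm00001d000226 reached 1.02 FPKM and was not tested.

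The table held 30 other genes annotated to protein degradation by their description, GO terms or pathway, and 13 of these exceeded 1 FPKM in a sample. At 12 DAP 2 of 12 tested passed both thresholds (16.7%, beside 22.7% of all genes), both higher in *smk7a*, and at 20 DAP 3 of 11 did (27.3%, beside 15.8%), again all higher. After scaling 1 passed at each stage, beside 15.9% and 8.33% of all genes. Zm00001d002065, described as maize insect resistance3, a protease, was the most changed at 12 DAP, from 35.3 FPKM in WT to 104 FPKM in *smk7a*, with 1.56 as deposited (adjusted p = 0.000116) and 1.08 after scaling. Zm00001d001767, a speckle-type POZ protein, was at 3.75 FPKM in WT and 11.8 FPKM in *smk7a* at 20 DAP, with 1.66 as deposited (adjusted p = 0.000263) and 1.10 after scaling (adjusted p = 0.00649). Of the stage differences none passed both thresholds by limma among 12 genes tested, beside 12% of all genes (12.3% after scaling). By adjusted p alone, 2 were higher at 20 DAP (16.7%), beside 13.1% of all genes, and the same 2 after scaling, beside 13.3%. Zm00001d000178 (autophagy-related protein 3, an E2-like enzyme) had 0.62 (adjusted p = 0.0206) and, after scaling, 0.53 (adjusted p = 0.0452). Zm00001d002027 (COP9 signalosome subunit 5b, which regulates cullin ligases) had 0.65 (adjusted p = 0.0391) and, after scaling, 0.57 (adjusted p = 0.0306).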

How the data were processed

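Whole-kernel RNA was sequenced from stranded libraries of WT and *smk7a* kernels at 12 and 20 DAP. Per the submitters' processing notes and the study's methods, reads were trimmed with Trimmomatic and mapped by HISAT2 onto B73 RefGen_V4 (Ensembl Plants annotation), and perfectly matching reads were kept. The authors deposited FPKM per gene. The program and the use of strand in counting were not given in the sources used here. The copy of the table used here covers 720 genes. None of their identifiers matched the RefSeq table, so no coordinates or sequences are given.

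FPKM values were tested as log2(FPKM + 0.1) with limma 3.58.1 in R 4.3.3, with a mean-variance trend, on genes above 1 FPKM in 3 or more samples of a comparison. The stage difference was an interaction term over all 12 samples. Fold changes are on this scale and understate those of low genes. Simulated data were used to check the test of the 12 DAP genotype comparison only. They held large changes in both directions and no shift of the whole table. That check therefore does not bear on the shift or on small fold changes. Figures and joins used Python 3.11.15, pandas 2.3.3, numpy 2.4.6 and matplotlib 3.10.9. Alternatives were another scaling (median of ratios, upper quartile), pseudocount or filter, adjusted p alone, a replicate block and leaving out each sample.

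The list and its tests were chosen with earlier results of these data known. Genes named by rule were the E2 gene, each gene past both thresholds in any comparison under either scaling, the 2 most abundant genes of each role and the 3 with the largest stage difference. Others were named for completeness after their values were seen.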

Additional observations from a re-analysis of the deposited data

Results flagged for a closer look

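A stage difference of the *smk7a* response with an adjusted p under 0.05 (limma, interaction term, Benjamini-Hochberg over 375 genes) marked 8 degradation genes, given here as the log2 fold change at 20 DAP minus that at 12 DAP with FPKM as deposited. The values were 0.88 for SKP2A (Zm00001d000224), 0.86 for the hydrolase 25 gene Zm00001d000312, 0.65 for the E2 gene Zm00001d001913 and 0.64 for the ubiquitin-like gene Zm00001d001962. They were 0.92 for RPN8A (Zm00001d001966), 0.86 for MBR2 (Zm00001d002080) and 0.90 for the UBA gene Zm00001d002095. Those of RPN8A, Zm00001d000312 and Zm00001d001962 missed the threshold with a replicate block. The aspartyl protease gene Zm00001d001771 stood at -3.54, and it was the only gene of the 8 whose *smk7a* samples were all above WT at 12 DAP and all below WT at 20 DAP.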

How the results depend on the processing

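No degradation gene past both thresholds reversed its direction under any alternative run. This was largely given in advance, since a fold change above 2 exceeds the shift of the medians between the scalings. The minimum level had also fixed the direction of Zm00001d000390. Of all degradation genes tested, the sign changed with median of ratios scaling for 8 at 12 DAP and 9 at 20 DAP. The numbers of degradation genes past both thresholds were 4 at 12 DAP, 3 at 20 DAP, 1 with age in WT, 2 with age in *smk7a* and 1 for the stage difference. Without Zm00001d000390, left out after the data were seen because it was above 1 FPKM in 1 group only, they were 3 at 12 DAP, 1 with age in *smk7a* and 1 for the stage difference. By adjusted p alone, with it, they were 14, 18, 11, 9 and 8. A pseudocount of 1 FPKM gave 2 at 12 DAP, and a filter at 5 FPKM gave 1 at 12 DAP and 1 with age in *smk7a*. Median of ratios and upper quartile scaling each gave 1 at 20 DAP and 0 with age in WT. Leaving out 1 sample gave 1 to 3 at 12 DAP, 2 to 4 at 20 DAP, 1 with age in WT, 1 to 3 with age in *smk7a* and 1 to 4 for the stage difference. Over all genes, median of ratios scaling turned 68 higher and 15 lower calls at 12 DAP into 28 and 30, and 48 and 5 at 20 DAP into 13 and 15. It turned 7 higher and 54 lower calls with age in WT into 17 and 15, and 11 and 59 in *smk7a* into 18 and 25.

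The share of summed FPKM without the E2 gene was 4.82%, 5.27%, 5.27% and 5.54% in WT and *smk7a* at 12 DAP and WT and *smk7a* at 20 DAP. Outside the 10 most abundant genes it was 6.76%, 6.62%, 7.28% and 7.32%, and leaving out 1 sample gave shares of all 34 genes from 11.5% to 11.7%, 10.3% to 10.6%, 12.4% to 12.5% and 12.9% to 13.5%.

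Same-numbered samples did not deviate together at 12 DAP (correlations 0.061, -0.295 and -0.018) or 20 DAP (0.012, 0.056 and -0.005). Between the ages the correlations were 0.168, 0.142 and 0.036 in WT, where every sample correlated best with its own number, and -0.088, 0.165 and 0.171 in *smk7a*. In no comparison were all 3 above 0.1, so the numbers were not taken as pairs. With a replicate block, 4, 3, 1, 2 and 1 degradation genes passed both thresholds, and 5 stage differences kept an adjusted p under 0.05. Those of Zm00001d000312 and Zm00001d001962 (adjusted p 0.0761 each) and of RPN8A (0.0611) did not. FPKM carry no depth, so counting error stayed unknown.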
